A study of Gallus gallus with 5 samples.

Results

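The alpha keratins of the regenerating chicken feather follicle were taken as all gene entries whose name is KRT followed by a number, which gave 13 of the 17108 entries in the table. RNA came from wing flight feather follicles that had been plucked to start regrowth, with 5 follicles pooled in each of 5 libraries. There were 2 wild-type libraries, whose titles alone carry an unexplained tag T4, and 1 library each labelled Wnt5a overexpression, shlnc7831 and shlnc3500, the last 2 being knockdowns of long non-coding RNAs (called below the Wnt5a-labelled, the lnc7831 and the lnc3500 library). Lentiviral vectors were used, pLVX-Zsgreen for overexpression and pLL3.7 for knockdown, and no library is labelled as made with an empty vector. The labels give no age, sex or strain of the birds and do not say whether the wild-type libraries came from separate birds, so their spread may be technical.

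Alpha keratins are the intermediate filament proteins of epithelial cells. An acidic type I keratin pairs with a basic type II keratin to build a filament, and desmosomes and hemidesmosomes anchor the filaments to neighbouring cells and to the basement membrane. In the feather follicle they are made by the epithelium, while the hard barbs and rachis of the grown feather are built largely of the unrelated corneous beta proteins. In mammalian skin KRT14 pairs with KRT5 in the basal layer, and KRT15 marks basal and hair follicle stem cells. KRT75 is expressed in the feather, and a KRT75 mutation causes the frizzle feather of chickens.

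Of the 13 keratins 6 were above 0 FPKM (the fragments of a gene per unit of transcript length and of sequenced library) in at least 1 library, and all 6 are type I keratins. These were KRT14, KRT15, KRT20, KRT12, KRT222 and KRT19. The other 7 were listed at 0 in every library, among them all 6 type II keratins of the table (KRT4, KRT5, KRT6A, KRT8, KRT75 and KRT80) and the type I keratin KRT18, the partner of KRT8 in simple epithelia. Of all entries, 20.3% were listed at 0 in every library. With the summed type II level at 0 in each library, no ratio of type I to type II keratin could be formed.

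The zeros covered the surroundings of the type II cluster as well. In the RefSeq gene order of a later chicken assembly (GRCg7b), KRT18 and the type II keratins lie together, away from KRT14 and KRT222, while KRT4 has no entry there. All 80 other protein-coding genes of that chromosome whose names are in the expression table were listed at 0 in all 5 libraries, including the 20 nearest neighbours of the cluster. Among them are genes that nearly every cell uses, such as RPS26, which encodes a ribosomal protein, ATP5B, a subunit of the mitochondrial ATP synthase, and CS, which encodes citrate synthase. Around the type I cluster 1 of 20 neighbours was listed at 0, and over all 11372 matched names the share was 5.82%. Of 31 chromosomes with at least 20 matched names, this was the 1 with every name at 0, and the highest share on another was 96.4%. The zeros of the type II keratins and KRT18 are therefore given as listed at 0 only, and no level of these genes is read from them.

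**Figure D1:**
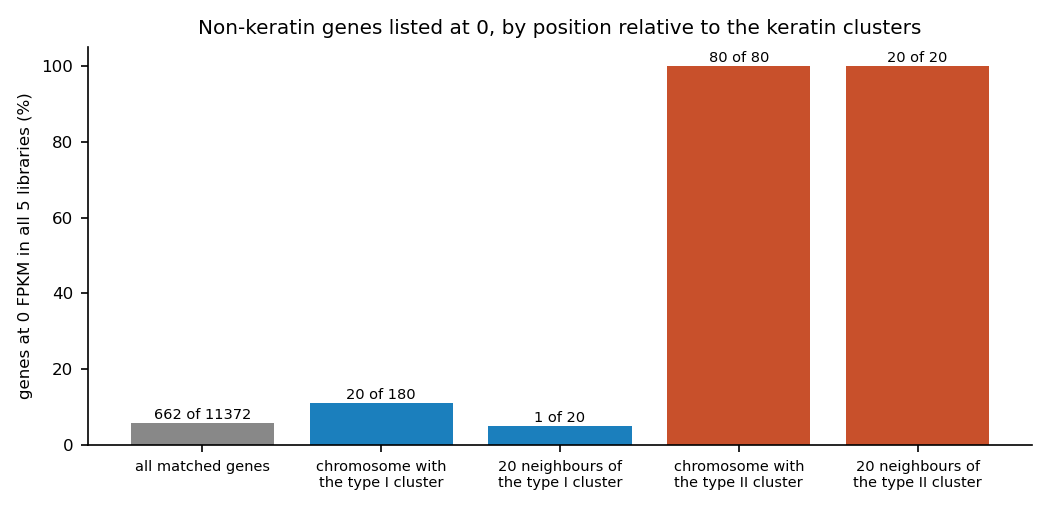
Share of non-keratin genes listed at 0 FPKM in all 5 libraries (y axis, percent), for all matched genes and by position in the GRCg7b gene order. All 80 genes on the chromosome of the type II cluster were at 0, against 20 of 180 on the chromosome of the type I cluster.

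Among the 6 keratins above 0 FPKM, KRT14 was by far the most abundant. The type II keratins and KRT18 have no place in this order, since no level is read for them. As deposited, KRT14 (ENSGALG00000023855) had 621 and 1743 FPKM in wild-type libraries 1 and 2. It had 4288 FPKM in the Wnt5a-labelled library, 4401 in the lnc7831 library and 3822 in the lnc3500 library. All 3 treated libraries thus lay above both wild types, and wild-type library 1 was the lowest. Ranked by FPKM over all entries, KRT14 was number 139 in wild-type library 1, number 63 in library 2 and between number 32 and number 47 in the treated libraries.

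KRT15 (ENSGALG00000019718) came second in the order of levels. It had 29.5 and 285 FPKM in wild-type libraries 1 and 2, 374 in the Wnt5a-labelled library, 662 in the lnc7831 library and 254 in the lnc3500 library. Here wild-type library 1 stood apart from the other 4 libraries, and wild-type library 2 lay within the range of the treated libraries.

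The remaining type I keratins above 0 FPKM were low. KRT20 (ENSGALG00000019716), known in mammals from gut and bladder epithelium and Merkel cells, had 0.279 and 1.49 FPKM in wild-type libraries 1 and 2, then 7.10 in the Wnt5a-labelled library, 18.7 in the lnc7831 library and 5.59 in the lnc3500 library. KRT12 (ENSGALG00000019715), a corneal keratin in mammals, had 0.154 and 1.04 FPKM in wild-type libraries 1 and 2, then 2.25 in the Wnt5a-labelled library, 5.11 in the lnc7831 library and 1.80 in the lnc3500 library. In both genes the wild types lay below all treated libraries, and the lnc7831 library was highest.

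KRT222 (ENSGALG00000003859), a keratin-like gene of the type I cluster, had 1.01 and 0.516 FPKM in wild-type libraries 1 and 2, then 1.96 in the Wnt5a-labelled library, 2.099 in the lnc7831 library and 2.29 in the lnc3500 library. It was the 1 keratin with a lower value in wild-type library 2 than in library 1. KRT19 (ENSGALG00000019719), a keratin of simple epithelium and hair follicle bulge in mammals, was listed at 0 in both wild types and had 0.320, 0.674 and 0.188 FPKM in the Wnt5a-labelled library, the lnc7831 library and the lnc3500 library. Its mean was below 1 FPKM, so it was not tested, and no fold is given against a group listed at 0.

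**Figure D2:**
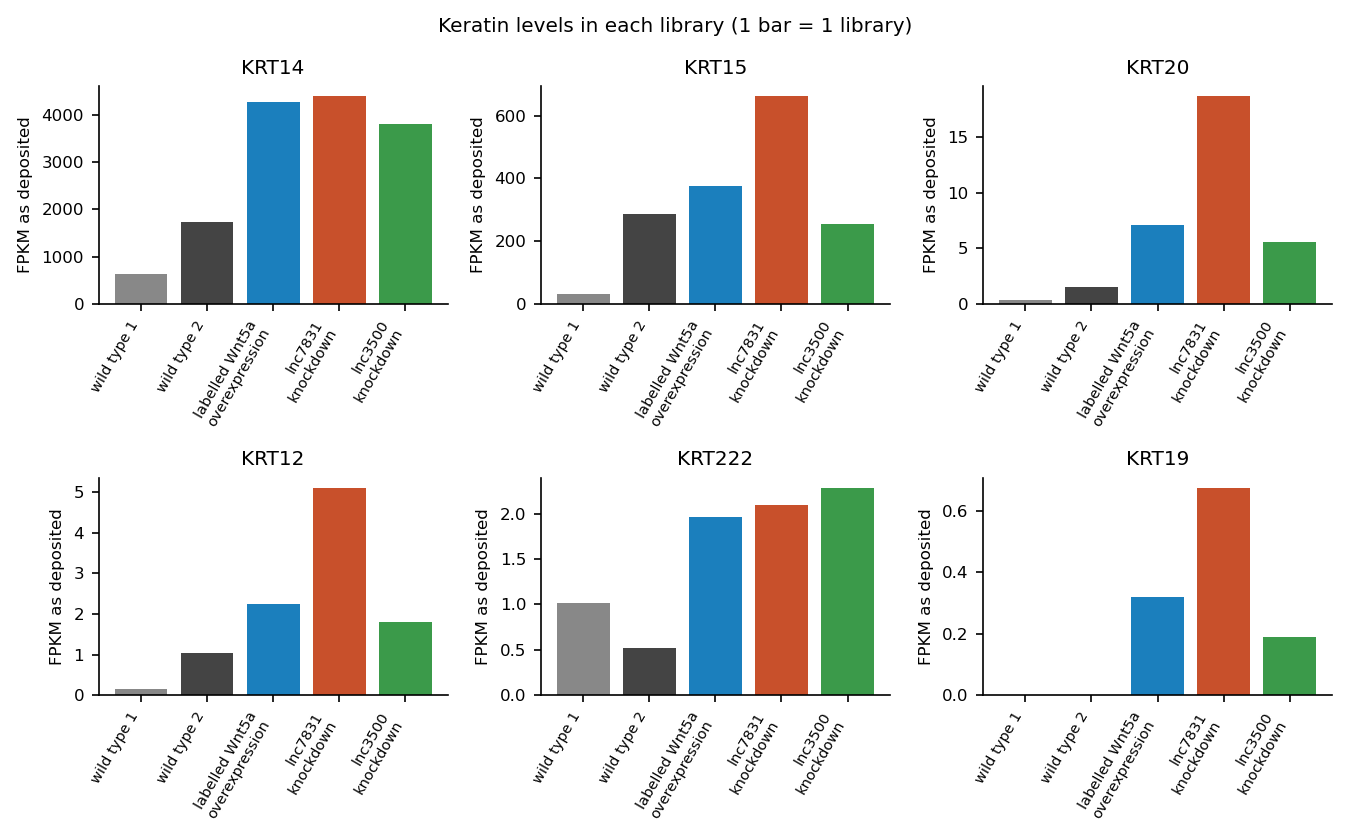
Level of the 6 keratins above 0 in each library (y axis, FPKM as deposited, linear, each panel with its own scale), 1 bar per library. KRT14 reached 4401 FPKM and KRT19 0.674 FPKM, and in 5 of the 6 panels the bar of the lnc7831 library is the tallest.

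The order by mean FPKM was KRT14, KRT15, KRT20, KRT12, KRT222 and KRT19. KRT14 lay above KRT15, KRT15 above KRT20 and KRT20 above KRT12 in all 5 libraries. KRT12 and KRT222 were not separated, since KRT12 was the higher in 3 of 5 libraries, and KRT20 was above KRT222 in 4 of 5. Of the summed FPKM of the keratins in this order, KRT14 made up between 85.8% and 95.3% in a library and KRT15 between 4.52% and 14.02%. The type II keratins and KRT18, for which no level is read, add nothing to this sum. Of 21 keratin symbols in the GRCg7b gene table, 8 are in the expression table and 3 more match by an older name. Other keratins may thus be missing too, and the percentages are not shares of all keratins. The names of several members, the abundant KRT15 among them, are not settled, so traits of the mammalian genes of the same name may not hold for them. In the RefSeq table KRT20, KRT15 and KRT19 are older chicken names of KRT40, KRT13 and KRT24, and KRT12, like KRT4, has no entry. Keratins resemble each other in sequence, and how shared reads were assigned is not given, so the split between them is uncertain.

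FPKM are scaled within a library, and as deposited the median tested gene was 0.54, 0.64 and 0.56 log2 units above wild type in the Wnt5a-labelled library, the lnc7831 library and the lnc3500 library. Differences below are therefore relative to the median gene, as log2 of the centred FPKM plus 1, a scale that understates the change of low genes. Below, 2-fold means 1 log2 unit on this scale. WNT5A, the gene named in the first treatment, had 29.7 and 64.3 FPKM in wild type and 75.7 in the library labelled for its overexpression, a relative difference of 0.19, so the gene did not stand out there. WNT5A was highest in the lnc7831 library, with 162 FPKM and a relative difference of 1.16, and had 43.8 FPKM and -0.62 in the lnc3500 library. No entry is named for either long non-coding RNA, and their knockdown could not be checked. ACTB, which encodes beta-actin, had relative differences of 0.26, 0.19 and 0.45. The source name is dermal papilla, the mesenchymal core of the follicle. Dermal markers were present with 10 of 12 measured, at a summed centred level of 7100 to 8228 FPKM in wild type, and so were 18 of 20 non-keratin keratinocyte markers at 1797 to 2488, with none of either list at 0. RNA of dermal and epidermal cells was thus present together, and more epithelial cells cannot be told apart from more keratin RNA per cell.

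The same genes also set the wild-type libraries apart. Library 2 was above library 1 by 1.42 log2 units for KRT14, 3.18 for KRT15, 1.08 for KRT20 and 0.95 for KRT12, and KRT222 was at -0.50. On this scale 3 of the 5 tested keratins were at least 2-fold higher in library 2, as were 8.42% of the 11031 tested genes. A larger difference than that of KRT15 was found in 42 genes. Without the added 1, the fold of library 2 over library 1 was 6.46 for KRT12 and 2.69 for KRT14. Other epithelial genes were mixed between library 2 and library 1. The keratinocyte markers had a median of -0.41, with COL17A1 at 2.19, CLDN4 at 1.13, EPCAM at -1.11 and CLDN1 at -1.15. The desmosome and linker genes had a median of -0.11, and the late epidermal differentiation genes, 5 of which were measured, 0.87. These 5 ran from -2.01 for TGM3 to 4.36 for SPINK5, which was listed at 0 in library 1.

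Of the 5 keratins tested, KRT14 and KRT15 were well above the filter in wild type. KRT20, KRT12 and KRT222 had wild-type means of 0.887, 0.597 and 0.765 FPKM, so these 3 reached the required mean of 1 FPKM through the treated libraries alone, as did 349 of the 11031 tested genes. The filter therefore favours treated values above wild type for these 3, and the keratin counts and medians below are descriptions that support no statement about the keratins as a group.

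In the Wnt5a-labelled library 4 of the 5 tested keratins lay above both wild types, against 31.8% of all tested genes. KRT20 was the 1 keratin at least 2-fold above both, which 2.18% of genes were, and 0 keratins were 2-fold below both, as 1.74% of genes were. Against wild-type library 1 the differences were 2.15 for KRT14, 3.002 for KRT15, 2.37 for KRT20, 1.28 for KRT12 and 0.19 for KRT222. Against library 2 they were 0.73, -0.18, 1.29, 0.34 and 0.70 in the same order. At least 2-fold above wild-type library 1 alone were 4 keratins (8.81% of genes), and above library 2 alone 1 keratin (4.13% of genes). KRT15 thus lay between the wild types after centring, although as deposited it was above both (374 against 29.5 and 285 FPKM), and for KRT14 the choice of wild type moved the difference from 0.73 to 2.15. In limma the difference of KRT20 from the wild-type mean was 1.83 (SE 0.59, adjusted p = 1) and that of KRT14 was 1.44 (SE 0.76, adjusted p = 1), with 1 treated library.

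In the lnc7831 library all 5 tested keratins lay above both wild types, against 31.0% of all tested genes. KRT20 and KRT12 exceeded both by at least 2-fold, against 1.64% of genes, and 0 keratins were 2-fold below both, against 1.32%. Against wild-type library 1 the differences were 2.08 for KRT14, 3.71 for KRT15, 3.53 for KRT20, 2.07 for KRT12 and 0.18 for KRT222. Against library 2 they were 0.65, 0.53, 2.45, 1.12 and 0.68. Taken singly, wild-type library 1 was exceeded 2-fold by 4 keratins (8.51% of genes) and library 2 by 2 (4.10% of genes). On this scale KRT15 was the keratin farthest from library 1, and KRT20 the farthest from library 2 and from the wild-type mean. Without the added 1, the folds over library 1 were 39.9 for KRT20, 19.7 for KRT12 and 13.4 for KRT15. The filter favours high treated values for KRT20 and KRT12, so their folds and the KRT20 rank given next support no statement about them. The KRT20 difference from the wild-type mean was 2.99 (SE 0.59, limma adjusted p = 1), and 24 of the 11031 tested genes had a larger one. For KRT12 it was 1.59 (SE 0.59, adjusted p = 1 in limma).

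In the lnc3500 library 4 keratins lay above both wild types, against 31.9% of genes, and 0 were 2-fold above both or 2-fold below both, against 1.43% and 1.64%. Against wild-type library 1 the differences were 1.95 for KRT14, 2.41 for KRT15, 2.05 for KRT20, 1.06 for KRT12 and 0.31 for KRT222. Against library 2 they were 0.53, -0.77, 0.97, 0.11 and 0.81. Here 4 keratins were 2-fold above library 1 alone (9.14% of genes) and 0 above library 2 alone (3.14% of genes). KRT20 just missed the 2-fold rule against library 2 (a fold of 2.46 without the added 1), and KRT15 was lower than in that library.

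Read across libraries, KRT14, KRT20, KRT12 and KRT222 had all 3 treated libraries above both wild types, as 15.1% of tested genes did. Wild-type library 1 was the lowest for 4 of the 5 (30.1% of genes), and the lnc7831 library the highest for KRT15, KRT20 and KRT12 (18.7% of genes).

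In the 3 comparisons limma called 0 keratins at an adjusted p below 0.05 and 1, 4 and 0 genes in all, which is 0.00907%, 0.0363% and 0.00% of those tested. KRT20 had the largest keratin difference from the wild-type mean in each comparison, at 1.83, 2.99 and 1.51, but the filter favours high treated values for it. Each treated group is 1 library, so the spread rests on the 2 wild-type libraries with 1 residual degree of freedom. The 3 comparisons share these wild-type libraries. Pooled over the keratins, the median difference was 1.41, 1.59 and 0.82, against 0.00 for all tested genes in each comparison. It was 2.15, 2.08 and 1.95 against wild-type library 1 and 0.70, 0.68 and 0.53 against library 2.

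**Figure D3:**
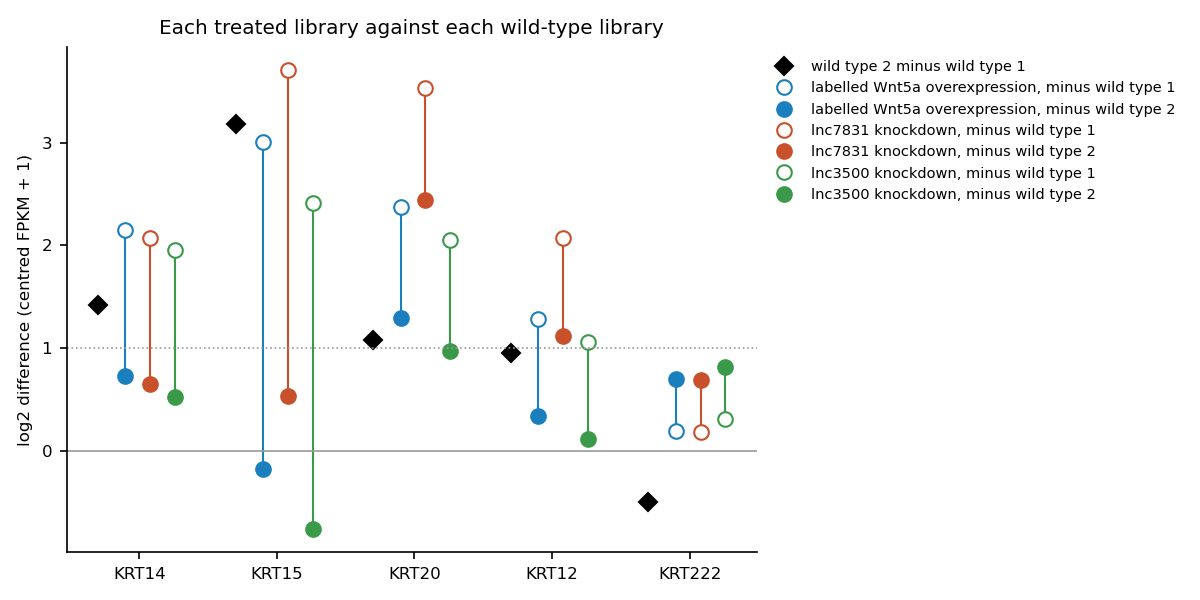
Log2 difference of each tested keratin (y axis, centred FPKM plus 1) in each treated library, with open circles against wild-type library 1 and filled circles against wild-type library 2, and diamonds for wild-type library 2 minus library 1. The dotted line marks 2-fold. Both circles lie above it for KRT20 in the Wnt5a-labelled library and for KRT20 and KRT12 in the lnc7831 library.

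Among the treated libraries, KRT14 and KRT222 were nearly level. KRT14 in the lnc7831 library was 0.12 above the lnc3500 library and -0.08 from the Wnt5a-labelled library, which was slightly the lower as deposited. By contrast, the lnc7831 library was above the lnc3500 library by 1.30 for KRT15, 1.48 for KRT20 and 1.01 for KRT12, and a 2-fold difference in this direction was found in 3.26% of genes. It was above the Wnt5a-labelled library by 0.71, 1.16 and 0.78 for the same genes, and 3.28% of genes were at least 2-fold higher there. Each library stands alone in these pairs, so no test was made.

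The levels of keratins relative to each other within a library do not depend on how libraries are scaled. Per 100 FPKM of KRT14, KRT15 had 4.74 and 16.3 FPKM in wild-type libraries 1 and 2, 8.73 in the Wnt5a-labelled library, 15.0 in the lnc7831 library and 6.65 in the lnc3500 library. The treated libraries all lay between the wild types. Per 1000 FPKM of KRT14, KRT20 had 0.450 and 0.857 FPKM in wild-type libraries 1 and 2, then 1.66 in the Wnt5a-labelled library, 4.25 in the lnc7831 library and 1.46 in the lnc3500 library.

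For KRT20, then, all treated libraries lay above both wild types also when measured against KRT14, which KRT15, KRT12 and KRT222 did not show. Of the 10849 tested genes above 0 in every library, 0.350% showed it. KRT14 was itself higher in every treated library, which makes this share small, and the filter favours high treated values for KRT20. The share therefore supports no statement about KRT20. KRT20 also exceeded KRT12, its neighbour in the order of levels, by more in the treated libraries. The ratio of KRT20 to KRT12 was 1.81 and 1.44 in wild type and 3.15, 3.66 and 3.10 in the Wnt5a-labelled library, the lnc7831 library and the lnc3500 library. Both genes were below 2 FPKM in wild type, and the read counts behind such low values are unknown.

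**Figure D4:**
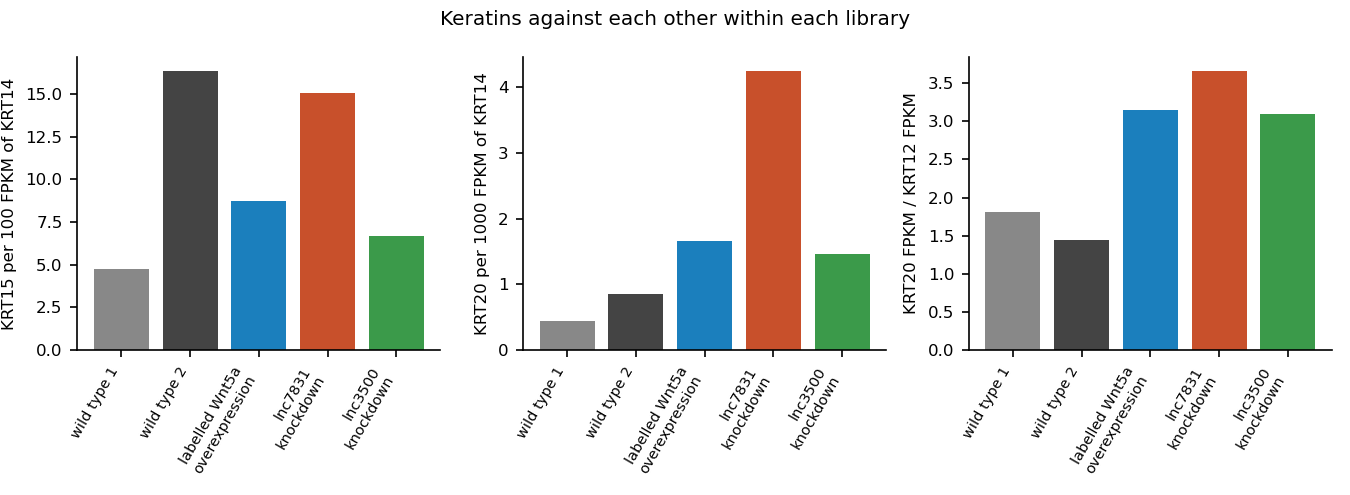
Keratins against each other within each library (linear axes from 0, ratios of FPKM), 1 bar per library. KRT15 per KRT14 was 4.74 in wild-type library 1 and 16.3 in library 2 with the treated libraries between them, while KRT20 per KRT14 and KRT20 over KRT12 were higher in each treated library than in both wild types.

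Of the 10 measured genes of the desmosomes and linkers that anchor keratin filaments, 4 passed the 2-fold rule upward in the Wnt5a-labelled library, 0 in the lnc7831 library and 2 in the lnc3500 library. Over all tested genes the shares past this rule were 2.18%, 1.64% and 1.43%, so 0 of 10 is near the share of all genes. The list medians were 1.03, -0.10 and 0.67. JUP, which encodes plakoglobin, had 339 and 400 FPKM in wild-type libraries 1 and 2, then 1580 in the Wnt5a-labelled library, 819 in the lnc7831 library and 1372 in the lnc3500 library. DSP, which encodes the desmoplakin that ties keratin to the desmosome, had relative differences of 0.76 (SE 0.43), -0.53 (SE 0.43) and 0.47 (SE 0.43). The lnc7831 library, with the highest KRT15, KRT20 and KRT12, thus had the lowest of the 3 list medians, which were not tested against each other.

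Most keratinocyte markers other than keratins lay above the wild-type mean too. Of 18 measured, 18, 14 and 16 lay above the wild-type mean in the Wnt5a-labelled library, the lnc7831 library and the lnc3500 library, against 50.1%, 50.4% and 49.7% of all tested genes. Past the 2-fold rule upward were 7, 3 and 4, against the 2.18%, 1.64% and 1.43% of genes given above. Their medians were 0.76, 0.28 and 0.32 from the wild-type mean, 0.51, 0.09 and 0.18 against wild-type library 1 and 1.03, 0.57 and 0.70 against library 2. Their summed centred level was 3677, 2792 and 3090 FPKM, most of it from SFN, as in wild type. Among those past the 2-fold rule, COL17A1, a collagen of the hemidesmosome, differed by 2.36 (SE 1.06) in the Wnt5a-labelled library and by 2.54 (SE 1.06) in the lnc7831 library. CLDN4, a tight junction gene, differed by 2.26 (SE 0.61) in the first and 1.84 (SE 0.61) in the lnc3500 library. ELF3, an epithelial transcription factor with 0.712 and 1.41 FPKM in wild type, passed the rule in all 3, at 2.26, 1.56 and 1.86. So did ITGA6, an integrin gene with 16.1 and 12.6 FPKM in wild type, at 1.45, 1.28 and 1.38.

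Set against the marker median in the same pair of libraries, KRT14 was 1.65, 1.99 and 1.77 above it relative to wild-type library 1 but -0.30, 0.08 and -0.18 from it relative to library 2. KRT20 in the lnc7831 library was above the marker median relative to both, by 3.44 and 1.88. KRT20 was above it by 0.26 relative to library 2 in each of the other treated libraries. KRT15 was 2.50, 3.62 and 2.23 above it relative to library 1 but at -1.20, -0.04 and -1.47 relative to library 2. KRT12 was 0.78, 1.98 and 0.87 above it relative to library 1 and at -0.69, 0.55 and -0.59 relative to library 2. KRT222 lay between -0.33 and 0.13 from it throughout. KRT20, KRT12 and KRT222 were low in wild type, and the filter favours high treated values for them. Their places relative to the marker median therefore support no statement about these genes. The part of the keratinocyte share in the keratin differences was not tested beyond these values.

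**Figure D5:**
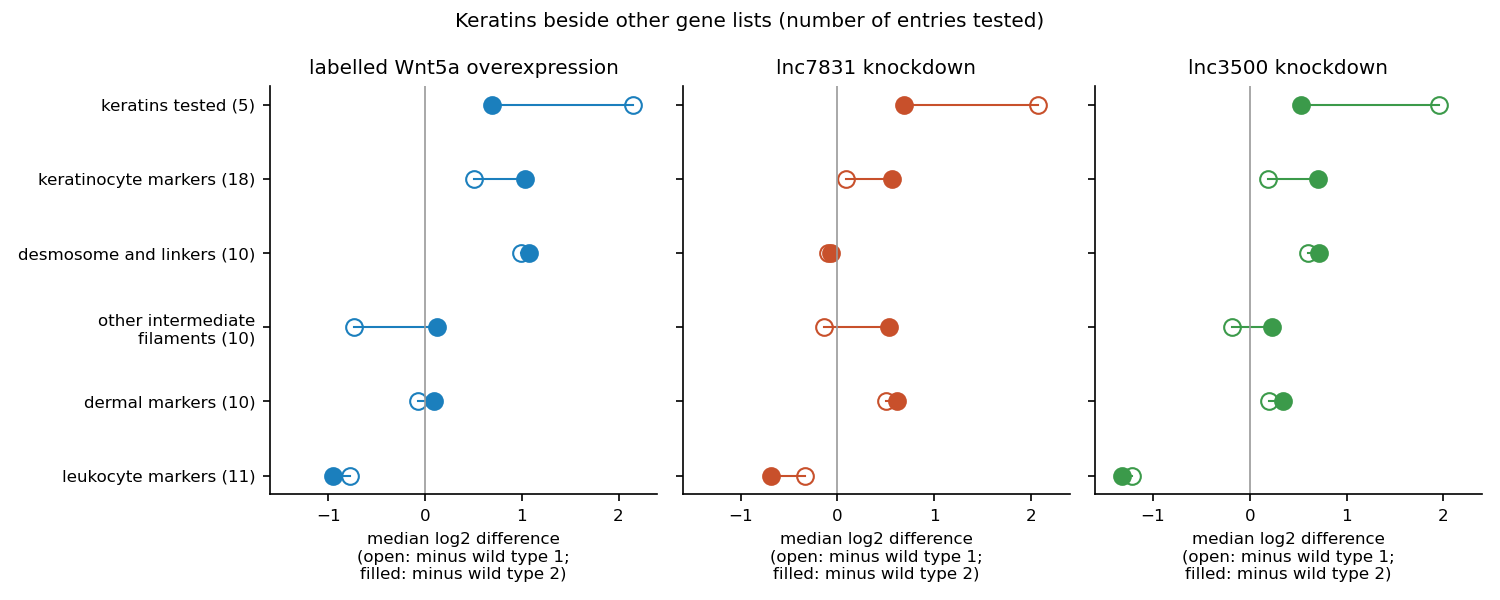
Median log2 difference (x axis, centred FPKM plus 1) of the tested keratins and of 5 other lists in each treated library, open circles against wild-type library 1 and filled circles against library 2. The keratin circles lie far apart (2.08 and 0.68 in the lnc7831 library), whereas those of the desmosome list lie close together (-0.09 and -0.07 there). In that library the keratinocyte markers were at 0.09 and 0.57 and the other intermediate filaments at -0.13 and 0.53. The dermal markers were at 0.50 and 0.61 and the leukocyte markers at -0.33 and -0.68 there.

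Of the other intermediate filament genes, 0 of 10 measured passed the 2-fold rule either way in each treated library. Over all tested genes 2.18%, 1.64% and 1.43% passed it upward and 1.74%, 1.32% and 1.64% downward, so 0 of 10 is near these shares. The medians of the other intermediate filament genes were -0.30, 0.25 and 0.04. INA, which encodes the neuronal filament protein alpha-internexin, was the member of that list most like KRT14. It had 0.0646 and 1.24 FPKM in wild type and 3.95, 4.92 and 4.26 in the Wnt5a-labelled library, the lnc7831 library and the lnc3500 library. Like KRT20, INA reached the mean required by the filter through the treated libraries alone, so the filter favours high treated values for it. Over all tested genes the profile across the 5 libraries most like KRT14 was that of CLIC3, a chloride intracellular channel gene, with a root mean square difference of 0.08 log2 units. It was followed by C2orf54, GRIN3B, INA and GALT, at 0.09 to 0.14. The profiles most like the mean of the tested keratins were those of CERS1, a ceramide synthase gene, at 0.09, and LAMB3, a laminin chain of the epidermal basement membrane, at 0.16, followed by ADM, NTM and GRIN3B. With 5 libraries and 11031 genes, close profiles are a description only. On this scale, which understates the change of low genes such as KRT12, KRT14 was nearest to KRT12 among the keratins, at 0.39. Their ratio was not constant, since KRT12 per 1000 FPKM of KRT14 ran from 0.248 in wild-type library 1 to 1.16 in the lnc7831 library. KRT15 and KRT222 were the least alike, at 1.34.

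Of the corneous beta proteins, which form the feather itself, 3 named entries were in the table. BKJ, a beta keratin gene, had 3.93 and 95.3 FPKM in wild-type libraries 1 and 2, then 67.8 in the Wnt5a-labelled library, 148 in the lnc7831 library and 36.0 in the lnc3500 library. As deposited, wild-type library 1 was lowest and the lnc7831 library highest, as for KRT15. After centring, BKJ in the lnc7831 library was -0.05 from wild-type library 2, whereas KRT15 was 0.53 above it. F-KER, a feather keratin gene, had 0.237 and 2.61 FPKM in wild-type libraries 1 and 2, then 9.53 in the Wnt5a-labelled library and 2.84 in the lnc3500 library, and was listed at 0 in the lnc7831 library. FK27 was below 1 FPKM in every library. Beta keratins are a large family of near-identical copies, so these values are uncertain.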

How the data were processed

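The authors deposited a single table of gene FPKM, 1 column per library. TopHat2 2.1.0, Cufflinks 2.2.1 and galGal4 are named in the submitters' processing notes. Strand, shared reads and scaling between libraries are steps not given in the sources used here. Read depth cannot be had from FPKM, so no interval covers counting error. Library sums of FPKM ran from 860352 to 2097886.

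To compare libraries, FPKM were divided by median-of-ratios factors (0.751 to 1.26), 1 was added and log2 taken. A mean of 1 FPKM or more let 11031 genes into limma 3.58.1 (R 4.3.3), run with a trend of variance on level, two-sided, Benjamini-Hochberg adjusted at 0.05. Lone treated libraries are assumed to vary like the wild type, and 2.7 prior degrees of freedom come from other genes. The step was tested on simulated data. The 2-fold rule asks for at least 1 log2 unit above, or below, both wild types taken singly, with no test. All keratins are reported. Of the other genes, up to 3 per list past this rule and the 5 nearest profiles were named. JUP, DSP, BKJ, F-KER, FK27, TGM3, ABCA12, KLF4, EPCAM, CLDN1, SFN and the genes listed at 0 were picked after their values were seen. The members and lists were chosen with earlier results of these data known. Names came from the table, and RefSeq GRCg7b served for names and gene order only (8 of 13 keratins matched by symbol, 3 by an older name).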

Additional observations from a re-analysis of the deposited data

How the results depend on the processing

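The direction of each keratin difference held in every setting run, except that KRT15 turned to -0.18 in the Wnt5a-labelled library and to -0.77 in the lnc3500 library without wild-type library 1, against 3.002 and 2.41 without library 2. Leaving out a wild-type library leaves no residual degrees of freedom, so those values have no test. Keratins at least 2-fold above the remaining wild type then numbered 1 to 4, 2 to 4 and 0 to 4 in the Wnt5a-labelled library, the lnc7831 library and the lnc3500 library, with 4 in each when library 1 alone was used, and the keratin median in the lnc3500 library ranged from 0.53 to 1.95. On FPKM as deposited, 2, 4 and 2 keratins were 2-fold above both wild types, and 0 genes were called in the first comparison. With a pseudocount of 0.1, 1 keratin (KRT20) passed the 2-fold rule in the lnc3500 library, and limma called 0 genes in the first comparison and 0 in the lnc7831 library. Upper-quartile scaling gave 4, 8 and 2 calls over all genes. Without the filter on low values limma made 183, 260 and 129 calls. Among them 1 keratin was called in the Wnt5a-labelled library and 1 in the lnc7831 library. This was KRT19, with adjusted p of 0.0260 and 0.0143 and 0.0568 in the lnc3500 library; listed at 0 in both wild types, it has no wild-type spread of its own. Without the trend no count moved by more than 1.5 times. The planned ratio of type I to type II keratin gave no value. No paired analysis was possible because only the wild-type titles carry replicate numbers. Unknown depth limits KRT20, KRT12, KRT222 and KRT19 most.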

Other observations

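Late differentiation genes of the epidermis were measured with 5 of 18 listed genes, of which 2, 0 and 2 passed the 2-fold rule upward in the Wnt5a-labelled library, the lnc7831 library and the lnc3500 library (2.18%, 1.64% and 1.43% of all tested genes), with medians of 1.17, 0.81 and 0.85. SPINK5, a protease inhibitor of the epidermal barrier, was listed at 0 in wild-type library 1, with 15.3 FPKM in library 2 and 103, 41.3 and 106 FPKM in the treated libraries in that order. TGM6, a transglutaminase gene, had 0.325 and 2.14 FPKM in wild type and 14.4, 6.82 and 11.03 in the treated libraries. TGM3, a transglutaminase gene, had 30.9 and 7.43 FPKM in wild type and 43.3, 11.5 and 41.8 in the treated libraries. The lnc7831 library was the lowest treated library for these 3 and for ABCA12, a lipid transporter gene, but not for KLF4, the fifth. ABCA12 had 17.8 and 10.5 FPKM in wild type and 48.3, 21.2 and 37.3 in the treated libraries. KLF4 had 20.2 and 39.3 FPKM in wild type and 75.2, 82.3 and 80.3 in the treated libraries. After centring, the lnc7831 library was -2.06 and -0.05 from wild-type libraries 1 and 2 for TGM3, and -0.47 and 0.30 for ABCA12. For SPINK5, TGM6 and KLF4 it lay above both wild types.

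Markers of other cells in the follicle were set beside the keratins. Leukocyte markers had medians of -0.83, -0.45 and -1.37, with 4, 1 and 6 of 11 past the rule downward, against 1.74%, 1.32% and 1.64% of all tested genes. Above the wild-type mean lay 2, 3 and 1 of the 11, against 50.1%, 50.4% and 49.7% of all tested genes. The list mixes lymphocyte and macrophage genes. In the Wnt5a-labelled and lnc7831 libraries those past the rule were all lymphocyte genes. Dermal markers had medians of 0.03, 0.57 and 0.15. In the lnc7831 library 1 of 10 passed the 2-fold rule upward, against 1.64% of all tested genes. This was COL3A1, a fibrillar collagen, at 1421 FPKM against 379 and 280 in wild type. Muscle markers had medians of -0.17, -0.40 and 0.39, endothelial markers -0.23, 0.17 and -0.19, and melanocyte markers -0.73, 0.51 and -0.24. TYRP1, a pigment enzyme gene, had 14.1 FPKM in the lnc7831 library against 3.01 and 0.189 in wild type. It was the 1 of 6 tested melanocyte markers past the 2-fold rule upward there, against 1.64% of all tested genes. Simple epithelium genes, which overlap the keratinocyte markers, had medians of 1.11, 0.21 and 0.98. None of these counts includes a gene called by limma over all genes.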
